A study of Mus musculus with 9 samples.

Results

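Whole aortae of mice that carry either of 2 smooth muscle Cre lines were compared with each other by messenger RNA sequencing, 3 Itga8-Cre against 3 Myh11-Cre mice, which are 6 of the 9 libraries of the series. The members were taken from the labels alone: all mice labelled Itga8-Cre and all labelled Myh11-Cre, each a separate animal numbered 1 to 3. Every mouse was of the C57BL/6J strain, and each library came from an aorta frozen at dissection and is not described as pooled. Itga8-Cre stands for Itga8-CreERT2, an inducible recombinase tied to the gene of integrin alpha 8, and Myh11-Cre for Myh11-CreERT2, an inducible recombinase driven by the smooth muscle myosin heavy chain gene. The study set the new Itga8 line beside the Myh11 line. Sex, age, tamoxifen treatment, zygosity, transgene copy number and any floxed allele are not stated in the labels, so the 2 groups differ, as far as the labels say, only in the Cre line they carry. The 3 Wild Type mice, C57BL/6J without a Cre label, helped to estimate the spread between mice, and their levels are given beside the Cre lines as a reference. All differences below are Itga8-Cre minus Myh11-Cre.

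CreERT2 is a recombinase fused to a modified oestrogen receptor, which keeps it out of the nucleus until tamoxifen is given. Integrins are pairs of an alpha and a beta chain that hold cells to the matrix. The alpha 8 chain pairs with integrin beta 1, binds matrix proteins such as nephronectin and is a marker of vascular smooth muscle. Myosin heavy chain 11 is the motor protein of contraction in smooth muscle of vessels and of visceral organs. The aortic wall holds smooth muscle in its media, endothelium on the inside and fibroblasts, nerves and immune cells in the adventitia, and a dissected aorta can bring fat, lymph node, thymus or muscle with it.

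Total counts in the 6 Cre libraries ran from 31419238 to 42497543, and 19412 of 55453 listed genes had enough counts to be tested. Levels are in CPM, counts brought to one library size with TMM factors, and are compared between mice, not between genes. Of all counts in these libraries, 13.66% to 15.92% fell on mt-Rnr2, a ribosomal RNA of mitochondria. All 36 smooth muscle contractile genes and all 24 endothelial markers on the lists were above the filter. Each of these genes also had counts in every library. The first principal component of the 6 libraries, with 47% of the variance, did not follow genotype: scores were -62.9, -52.4 and 29.5 in Itga8-Cre 1, 2 and 3 and -33.4, 59.4 and 59.8 in Myh11-Cre 1, 2 and 3. Itga8-Cre 3 thus lay with Myh11-Cre 2 and 3, and Myh11-Cre 1 with Itga8-Cre 1 and 2. Genes with the most weight in this component were Bmp10, Scgb1a1, Bpifa1 and Scgb3a2, followed by others such as Muc5b, Myl2, Myh7 and Acta1. Which carried tissue these transcripts came from was not tested. In such bulk samples, fewer cells of a type and less RNA per cell cannot be told apart.

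The gene that carries the new Cre was at a lower mean level in Itga8-Cre than in Myh11-Cre. Itga8 (ENSMUSG00000026768.10, chromosome 2, 12106632 to 12301922, GRCm38, minus strand) stood at 54.1, 76.5 and 62.9 CPM in Itga8-Cre 1, 2 and 3. It stood at 72.4, 298 and 300 CPM in Myh11-Cre 1, 2 and 3. The groups overlapped, because Myh11-Cre 1 lay below Itga8-Cre 2, while the other 2 Myh11-Cre mice lay far above all 3 Itga8-Cre mice. The means were 64.5 ± 11.3 CPM (SD, n = 3) and 224 ± 131 CPM (SD, n = 3), a 3.47-fold difference. The log2 fold change was -1.79 (SE 0.58) and did not pass the edgeR quasi-likelihood test (unadjusted p = 0.0142, Benjamini-Hochberg adjusted p = 0.521). Over the 18 other edgeR settings the change lay between -2.21 and -1.38 and the adjusted p between 0.139 and 0.967, and DESeq2 gave an adjusted p of 0.134. With single Cre libraries left out, DESeq2 passed Itga8 only without Myh11-Cre 1 (adjusted p = 9.04e-05), and its adjusted p lay between 0.0742 and 1 in the other 5 fits. Wild Type mice were at 475, 147 and 196 CPM.

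Myh11, the gene behind the other line, differed less. Myh11 (ENSMUSG00000018830.10, chromosome 16, 14194535 to 14291372, minus strand) was at 616, 745 and 649 CPM in Itga8-Cre and at 460, 1045 and 1114 CPM in Myh11-Cre. Myh11-Cre 1 was the lowest of the 6 mice and Myh11-Cre 2 and 3 the highest, so the groups overlapped. The log2 fold change was -0.38 (SE 0.32, edgeR adjusted p = 0.685); it was -0.69 without Myh11-Cre 1 and -0.17 without Myh11-Cre 3. DESeq2 did not call it with all libraries (adjusted p = 0.639) and did so without Myh11-Cre 1 (adjusted p = 0.00405). Acta2, the actin of smooth muscle, had the same order in the Myh11-Cre mice, with 171, 635 and 596 CPM, against 213, 320 and 302 CPM in Itga8-Cre.

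Dividing Itga8 counts by those of Acta2 brought the mice of each line together. The ratio of Itga8 to Acta2 counts was 0.254, 0.239 and 0.208 in Itga8-Cre 1, 2 and 3 and 0.424, 0.469 and 0.504 in Myh11-Cre 1, 2 and 3. Wild Type mice, at 0.458, 0.455 and 0.523, lay near Myh11-Cre. The 2 lines did not overlap, and Myh11-Cre 1, the mouse with the lowest Acta2, now lay with its own group. The ratio was 1.99-fold lower in Itga8-Cre, and the exact permutation test (two-sided) gave p = 0.1, below which 3 mice a group cannot go. Against Tagln, the smooth muscle protein transgelin, the ratio was 1.96-fold lower and against Cnn1, calponin, 1.81-fold lower. Against Myh11 itself it was 2.4-fold lower, and none of these 3 ratios overlapped between the lines (exact permutation p = 0.1 for each). The ratio to Cnn1 was uneven within Itga8-Cre, at 2.19, 2.13 and 1.1 in mice 1, 2 and 3. In Myh11-Cre it was 3.46, 3.11 and 2.85. Against each of the 36 contractile genes Itga8 had a lower mean log2 ratio in Itga8-Cre, by a median of -1.21 (range -1.62 to -0.48). The lines were separate for 27 of the 36 and overlapped for 9, among them Myl6, Actg2, Tpm2 and Des. All of these ratios share the same Itga8 counts. The share of all genes whose ratio to a contractile gene separates the lines was not tested.

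**Figure D1:**
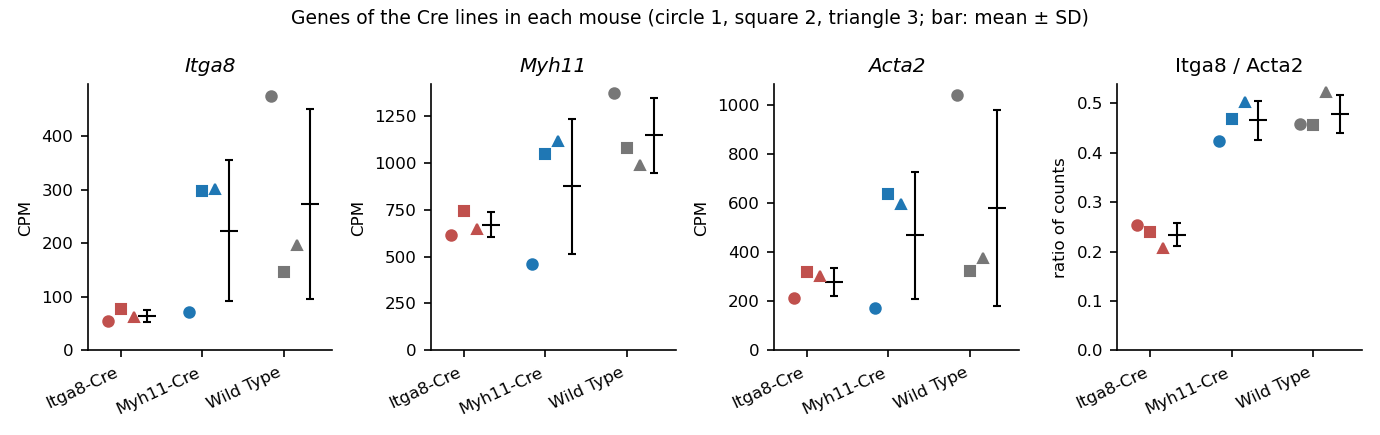
Levels of Itga8, Myh11 and Acta2 in CPM and the ratio of Itga8 to Acta2 counts (vertical axes, linear, from 0) in the 3 mice of each genotype, with mean ± SD beside the points. Myh11-Cre 1 (blue circle) is low in all 3 genes, and in the ratio the 3 Itga8-Cre mice, at 0.208 to 0.254, lie below the 3 Myh11-Cre mice, at 0.424 to 0.504.

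The ratios to Acta2 of the few other genes looked at, Myh11, Npnt, Itgb1 and E030013I19Rik, overlapped between the lines. Myh11 counts divided by Acta2 counts gave 2.46 ± 0.388 (SD, n = 3) in Itga8-Cre mice and 2.07 ± 0.555 (SD, n = 3) in Myh11-Cre mice, overlapping (exact permutation p = 0.4). The ratios to Acta2 of Npnt, the integrin ligand nephronectin, and of Itgb1, the beta chain that pairs with integrin alpha 8, overlapped too (exact permutation p = 0.4 and 0.6). E030013I19Rik, an antisense gene that starts inside Itga8 (chromosome 2, 12300946 to 12312315, plus strand), was at 3.35, 5.67 and 4.19 CPM in Itga8-Cre and 2.9, 11.3 and 13.2 CPM in Myh11-Cre. Its ratio to Itga8 counts was 0.0618, 0.0742 and 0.0666 in Itga8-Cre against 0.0401, 0.0381 and 0.0441 in Myh11-Cre. That ratio was 1.66-fold higher in Itga8-Cre without overlap (exact permutation p = 0.1), while the ratio of E030013I19Rik to Acta2 overlapped (exact permutation p = 0.2). The lower Itga8 counts are the denominator of the first ratio, so it is not separate evidence about the antisense gene. The library kit marks strand, but whether counting used strand is not given, so reads of the antisense gene and of Itga8 may be mixed.

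The stretch before the start of Itga8 is shown because the new Cre is tied to this locus. The 250 bases before its RefSeq start (GRCm38.p6, chr2:12301945-12302194, minus strand, read 5′ to 3′) hold no CArG box, the site of serum response factor found before many contractile genes, on either strand. Of 32851 such windows before mouse gene starts, 482 (1.47%) hold a CArG box. No capitals appear in this sequence, since no match was found.
Itga8: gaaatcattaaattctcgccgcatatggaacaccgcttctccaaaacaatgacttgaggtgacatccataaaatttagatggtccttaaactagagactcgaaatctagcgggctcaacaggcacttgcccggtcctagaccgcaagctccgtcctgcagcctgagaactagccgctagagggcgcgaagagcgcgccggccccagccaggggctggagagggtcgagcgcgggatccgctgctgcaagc

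Across all genes, edgeR's quasi-likelihood test called none of 19412 (0%) at an adjusted p under 0.05, the smallest adjusted p being 0.521, and limma voom called none (smallest adjusted p 0.12). DESeq2, run beside it, called 19 of the 17389 genes it adjusted (0.109%), 13 higher (0.0748%) and 6 lower (0.0345%) in Itga8-Cre. At an unadjusted edgeR p under 0.05 there were 1840 genes (9.48%), of which 1484 were higher (7.64%) and 356 lower (1.83%) in Itga8-Cre. The 3 mice of one line lay above all 3 of the other for 2469 genes (12.7%), with Itga8-Cre above for 1874 (9.65%) and below for 595 (3.07%). These shares are the background against which the counts in the gene lists below are to be read. The median log2 fold change of all genes was 0.01, and 51.3% of genes had a positive value. The word called is kept below for an adjusted p under 0.05, and where no tool is named the change and p are those of edgeR.

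The gene with the smallest p was Hccs, whose product, holocytochrome c synthase, attaches haem to cytochrome c in mitochondria. Hccs (ENSMUSG00000031352.10, chromosome X, 169250193 to 169320372, minus strand) was at 41, 27.7 and 33 CPM in Itga8-Cre 1, 2 and 3 and at 89.3, 67.8 and 81.1 CPM in Myh11-Cre 1, 2 and 3. The lines were well apart, and Wild Type, at 31.6, 27.2 and 29.6 CPM, lay with Itga8-Cre. The means were 33.9 ± 6.68 and 79.4 ± 10.8 CPM (SD, n = 3 each), 2.34-fold lower in Itga8-Cre. The log2 fold change was -1.23 (SE 0.16, unadjusted p = 3.75e-05, edgeR adjusted p = 0.521), and DESeq2 called it with an adjusted p of 1.14e-06. Of the 19 genes called by DESeq2, Hccs alone was also called by DESeq2 each time 1 of the 6 Cre libraries was left out, with adjusted p between 9.9e-11 and 0.0051. Over the other edgeR settings the change lay between -1.39 and -1.11 and the adjusted p between 0.0672 and 0.935. Divided by its neighbour Msl3, a subunit of a histone acetyltransferase complex, the count of Hccs was 1.61, 0.994 and 1.22 in Itga8-Cre. In Myh11-Cre it was 3.23, 2.22 and 2.62, without overlap (2.13-fold lower, exact permutation p = 0.1). Msl3 itself differed by only -0.15 and Hccs was picked by its p, so this ratio restates the difference in Hccs and is not separate support.

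The window before the start of Hccs is shown as the sequence next to the gene with the smallest p. It covers 250 bases by RefSeq (GRCm38.p6, chrX:169320373-169320622, minus strand, read 5′ to 3′), and 70.4% of them are G or C. Capitals mark GGGCGG, a GC box of the kind bound by Sp1 and related factors, which was found 3 times on this strand and 3 times on the other, where it reads CCGCCC. Of 32851 windows, 10756 (32.7%) hold at least 1 GGGCGG. A run of 33 bases occurs at position 15 and again at position 108 of the window, counted from its 5′ end.
Hccs: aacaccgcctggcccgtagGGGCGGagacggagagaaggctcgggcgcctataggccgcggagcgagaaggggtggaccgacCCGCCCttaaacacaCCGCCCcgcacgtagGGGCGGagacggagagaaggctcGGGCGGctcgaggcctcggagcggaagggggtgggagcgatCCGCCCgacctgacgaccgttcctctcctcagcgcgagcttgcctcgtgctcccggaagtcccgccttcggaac

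Neighbours of Hccs on the X chromosome were lower in Itga8-Cre in part. Arhgap6, a GTPase-activating protein whose gene overlaps Hccs on the opposite strand (chromosome X, 168795099 to 169304435), was at 7.29, 9.71 and 7.26 CPM in Itga8-Cre and 10.9, 17.1 and 14.5 CPM in Myh11-Cre. The lines did not overlap, and Wild Type was at 7.91, 8.46 and 7.57 CPM. The log2 fold change was -0.81 (SE 0.19), called by DESeq2 (adjusted p = 0.0483) and not by edgeR (adjusted p = 0.521). Reads of Arhgap6 and Hccs cannot be told apart where they overlap unless strand was used in counting. Tlr7, the receptor for single-stranded RNA in endosomes of immune cells (chromosome X, 167304929 to 167330558), starts 1.99 Mb away from Hccs. It was at 7.92, 12.2 and 9.32 CPM in Itga8-Cre and at 12.5, 18.6 and 14.3 CPM in Myh11-Cre, separate by a small margin, and at 6.72, 5.39 and 6.61 CPM in Wild Type. Its log2 fold change was -0.62 (SE 0.2, unadjusted p = 0.0146, DESeq2 adjusted p = 0.228).

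The other genes of the window gave no clear order. Prps2, which makes the precursor of nucleotides, was at 18.7, 30 and 48 CPM in Itga8-Cre and 63.1, 54.4 and 38.8 CPM in Myh11-Cre, overlapping through Itga8-Cre 3. Of the 10 tested genes that start within 2 Mb of Hccs, 8 had a negative and 2 a positive log2 fold change, with a median of -0.42. Arhgap6 and Tlr7 were the 2 with an unadjusted p under 0.05 and the 2 whose groups did not overlap. Msl3, which lies between them, differed by -0.15, and Frmpd4, a scaffold protein of nerve cells, by 0.49. Over the wider list of 16 tested distal X genes, 11 were lower and 5 higher, with a median of -0.16. Tmsb4x, which encodes the actin-binding thymosin beta 4, and Gpm6b, a membrane protein of glia, were the 2 that lay higher in all 3 Itga8-Cre mice (log2 fold changes 0.30 and 0.33).

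**Figure D2:**
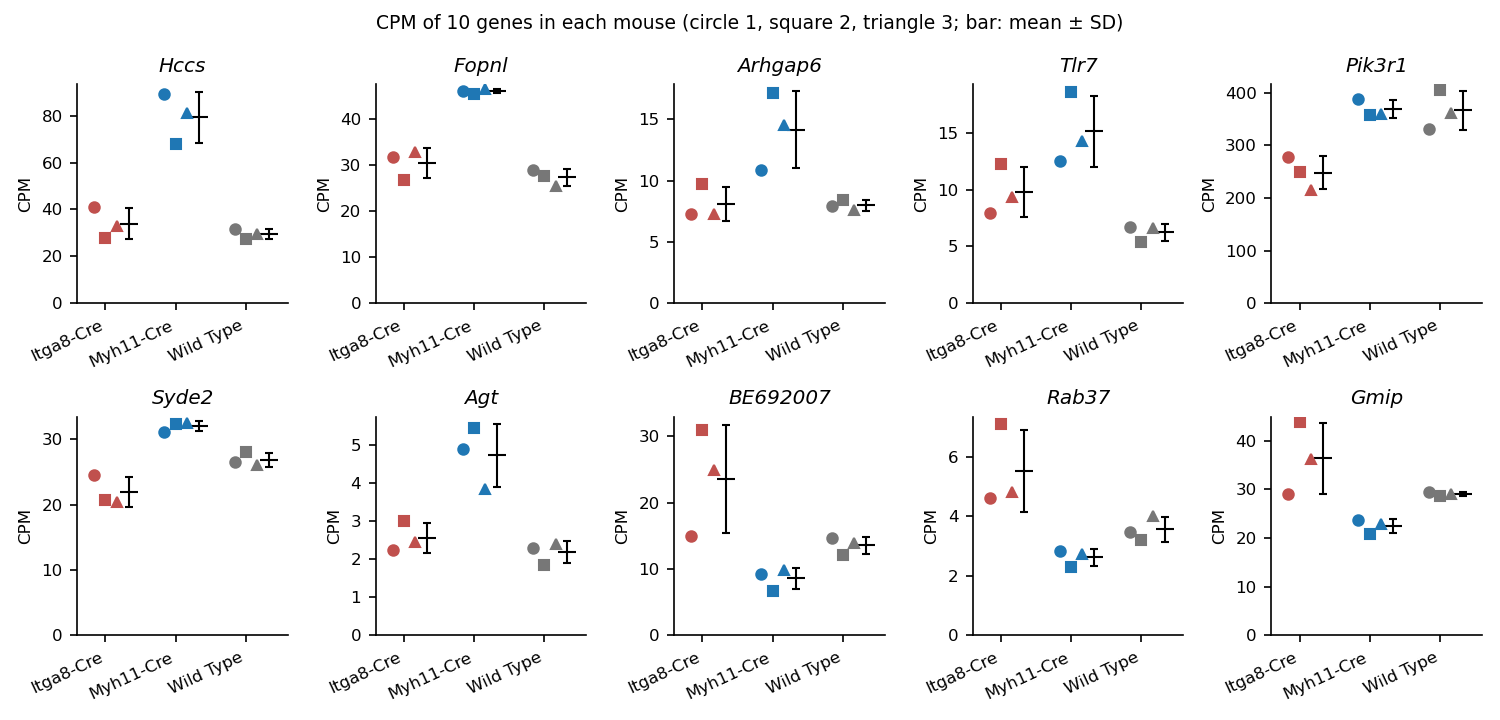
CPM (vertical axes, linear, from 0) of 10 genes in the 3 mice of each genotype, with mean ± SD beside the points: Hccs, Fopnl, Arhgap6, Tlr7, Pik3r1, Syde2 and Agt, lower in Itga8-Cre than in Myh11-Cre, and BE692007, Rab37 and Gmip, higher. No gene shown has overlapping Cre lines, and in Hccs, Fopnl, Arhgap6 and Agt the Wild Type mice lie close to Itga8-Cre.

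Next to Myh11, one gene stood apart. Fopnl, a centrosomal protein gene (ENSMUSG00000022677.15, chromosome 16, 14299244 to 14317405, minus strand), lies just upstream of Myh11 with its start 0.026 Mb from that of Myh11. It was at 31.7, 26.8 and 32.8 CPM in Itga8-Cre and at 45.9, 45.4 and 46.3 CPM in Myh11-Cre. The 3 Myh11-Cre mice were close together and above all others, and Wild Type was at 28.9, 27.5 and 25.4 CPM. The level was 1.51-fold lower in Itga8-Cre (log2 fold change -0.59, SE 0.10, unadjusted p = 0.000245, edgeR adjusted p = 0.521), and DESeq2 called it (adjusted p = 0.00844). DESeq2 kept that call in 4 of 6 fits that left out 1 Cre library, and the largest adjusted p among the 6 was 0.304.

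Other genes around Myh11 were not called by either tool. The largest difference among them was in 2310015D24Rik, a long non-coding RNA gene, at 0.658, 0.443 and 1.06 CPM against 0.684, 1.9 and 1.98 CPM, overlapping through Itga8-Cre 3 (-1.08, unadjusted p = 0.0486). Nde1, a dynein regulator on the other side of Myh11, differed by -0.07, Abcc1, an export pump, by -0.10 and Marf1, a regulator of RNA, by 0.10, all with overlapping groups. Mpv17l, a peroxisomal protein gene, was lower in all 3 Itga8-Cre mice (3.2, 2.43 and 3.27 CPM against 4.21, 3.48 and 4.22 CPM, log2 fold change -0.42, unadjusted p = 0.0551). Of 26 other tested genes within 2 Mb of Myh11, 18 were lower and 8 higher, with a median of -0.08. Around Itga8, 25 of 37 other tested genes were higher and 12 lower, with a median of 0.10, and DESeq2 called none of them. Ankrd16, which takes part in protein synthesis, was the gene of that window with an unadjusted p under 0.05 on the higher side (log2 fold change 0.34, unadjusted p = 0.0125), with 20.3, 23.5 and 19.6 CPM in Itga8-Cre against 17.4, 16 and 16.6 CPM in Myh11-Cre. On the lower side it was Hacd1, an enzyme of very long-chain fatty acid synthesis, with 9.64, 8.08 and 10.2 CPM against 9.66, 13.4 and 15.6 CPM, overlapping through Itga8-Cre 3 (-0.47, unadjusted p = 0.0388). Pter, which encodes a phosphotriesterase-related protein, was at 7.21, 5.53 and 5.4 CPM against 6.68, 8.14 and 9.58 CPM, overlapping.

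**Figure D3:**
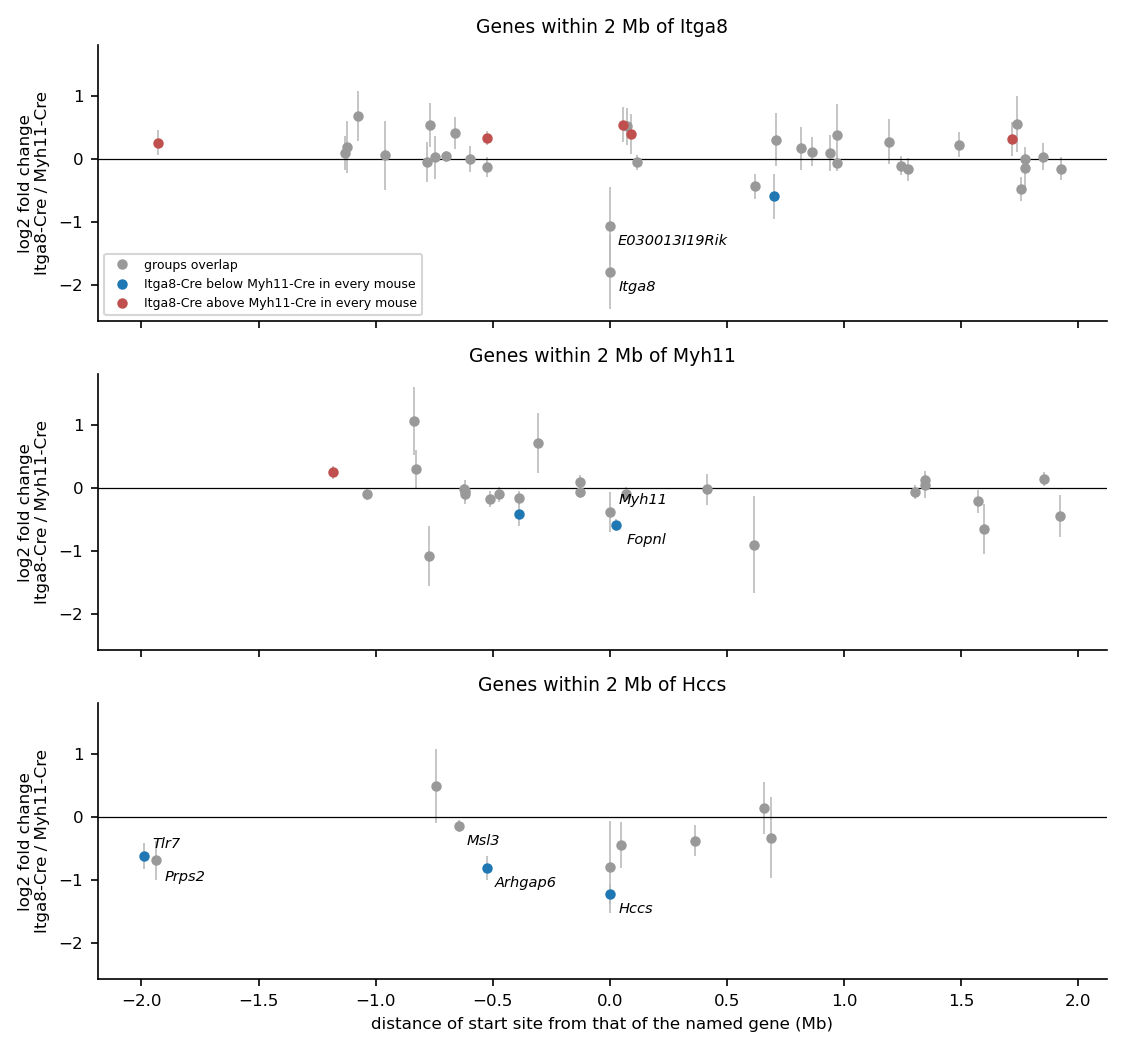
Log2 fold change of Itga8-Cre over Myh11-Cre (vertical axes, bars ± SE) of each tested gene against the distance of its start site from that of Itga8, Myh11 or Hccs in Mb (horizontal axis). Red points are genes higher and blue points genes lower in all 3 Itga8-Cre mice: Hccs at -1.23, Arhgap6 at -0.81, Tlr7 at -0.62 and Fopnl at -0.59 are blue, while Itga8 at -1.79 is grey because its groups overlap.

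Among the remaining genes called by DESeq2, 3 were lower in Itga8-Cre. Pik3r1, the regulatory subunit of the PI3 kinase downstream of insulin and growth factor receptors, was at 278, 249 and 215 CPM in Itga8-Cre and 388, 357 and 360 CPM in Myh11-Cre (log2 fold change -0.57, SE 0.14, DESeq2 adjusted p = 0.018). Here Wild Type, at 331, 406 and 362 CPM, lay with Myh11-Cre. Syde2, a GTPase-activating protein, was at 24.5, 20.6 and 20.4 CPM against 31.1, 32.3 and 32.5 CPM (-0.55, SE 0.10, DESeq2 adjusted p = 0.00436), with Wild Type between the lines at 26.5, 28.1 and 26 CPM. Agt, angiotensinogen, the precursor of the vasoconstrictor angiotensin II, was at 2.23, 2.99 and 2.45 CPM against 4.9, 5.45 and 3.83 CPM (-0.89, SE 0.21, DESeq2 adjusted p = 0.0483). Wild Type, at 2.29, 1.85 and 2.39 CPM, lay with Itga8-Cre in this gene. None of the 3 passed edgeR (adjusted p = 0.521 for each), and all 3 lost the DESeq2 call without Itga8-Cre 2 (adjusted p = 0.378, 0.207 and 0.378 in the same order).

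DESeq2 called 13 genes higher in Itga8-Cre, of which 8 have names other than gene models. BE692007, a transcript of no assigned protein on chromosome 19, was at 14.9, 31 and 24.9 CPM in Itga8-Cre and 9.22, 6.73 and 9.79 CPM in Myh11-Cre (log2 fold change 1.46, SE 0.26, DESeq2 adjusted p = 0.00202). Rab37, a small GTPase of secretory granules, was at 4.63, 7.11 and 4.81 CPM against 2.85, 2.31 and 2.73 CPM (1.07, DESeq2 adjusted p = 0.018). Gmip, a GTPase-activating protein, was at 29, 43.8 and 36.2 CPM against 23.7, 20.9 and 22.9 CPM (0.69, DESeq2 adjusted p = 0.0483). In each of these 3 genes Itga8-Cre 2 was the highest and Myh11-Cre 2 the lowest mouse of the 6. The other 5 of these were Arhgap22 (0.81) and Arhgap9 (0.86), both GTPase-activating proteins, Shank1, a scaffold of synapses (1.01), Clcf1, a cytokine of the interleukin 6 family (1.22), and Scml4, of the Polycomb family (0.93). The last 5 were the gene models Gm17809, Gm11346, Gm14085, Gm37212 and Gm42870, with log2 fold changes of 1.77, 1.41, 1.18, 1.09 and 1.11.

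These calls depended on single mice. Without Itga8-Cre 2, DESeq2 called 2 genes, both among the 19 (Hccs and Fopnl), and without Itga8-Cre 1 it called 655, which included all 19. It called 308 without Itga8-Cre 3, 756 without Myh11-Cre 1, 20 without Myh11-Cre 2 and 5 without Myh11-Cre 3, and of these 11, 19, 2 and 2 were among the 19. The edgeR test called none in any of these fits. BE692007 was called by DESeq2 in 5 of the 6 fits and Syde2 in 3.

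By smallest edgeR p, the named genes next in order were higher in Itga8-Cre in all but 1 case. They were H2-T24, a class Ib histocompatibility gene (log2 fold change 0.59), Ttyh3, a membrane protein of the tweety family (0.58), Tmc6 (0.49), the kinase Taok3 (0.39), Evl, which promotes growth of actin filaments (0.81), Ifi203, of the interferon-induced family that binds DNA (0.73), Arhgap27 (0.37) and Zfp318, a zinc finger protein needed for the IgD form of the B cell receptor (0.56). Evl was at 33.9, 56.5 and 37.2 CPM against 24.6, 22.7 and 25.5 CPM, again highest in Itga8-Cre 2 and lowest in Myh11-Cre 2. Gpc4, a heparan sulfate proteoglycan of the cell surface, was the lower gene, at 19.7, 16.5 and 15.9 CPM against 25.2, 24.4 and 22.6 CPM (-0.47). Each of these 9 had groups that did not overlap, an edgeR adjusted p of 0.521 and a DESeq2 adjusted p between 0.0683 and 0.157.

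Smooth muscle contractile genes as a group leaned lower in Itga8-Cre without any gene passing. Of 36 tested, 34 had a negative and 2 a positive log2 fold change, the median was -0.42, and none reached an unadjusted p under 0.05 or had groups that did not overlap. Their summed level was 4524 to 6145 CPM in Itga8-Cre, 4082 to 10090 CPM in Myh11-Cre and 5936 to 8571 CPM in Wild Type, so the range of Myh11-Cre enclosed that of Itga8-Cre. Myl9, the regulatory light chain of smooth muscle myosin, was at 88.3, 115 and 108 CPM in Itga8-Cre and 76, 236 and 231 CPM in Myh11-Cre (-0.80, SE 0.46). Actg2, an actin of visceral smooth muscle, was at 5.26, 9.18 and 16.2 CPM against 6.51, 32.9 and 33.4 CPM (-1.25, SE 0.62). In both genes Myh11-Cre 2 and 3 lay above all 3 Itga8-Cre mice, while Myh11-Cre 1 was the lowest of the 6 mice in Myl9 and the second lowest in Actg2. Without Myh11-Cre 1 the median was -0.71 and 22 of the 36 genes had an unadjusted p under 0.05, all lower. Without Myh11-Cre 3 the median was -0.23.

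Other lists of the vessel wall had medians closer to 0. Of 31 channels and receptors of smooth muscle tone, 24 were lower and 7 higher, with a median of -0.19, and Avpr1a, the vasopressin receptor, was the 1 gene with an unadjusted p under 0.05 (2.32, 2.02 and 2.33 CPM against 2.24, 4.08 and 3.93 CPM, -0.62). Of 23 transcription factors of smooth muscle, 15 were lower and 8 higher, with a median of -0.10. Mrtfa, the coactivator of serum response factor, was higher in all 3 Itga8-Cre mice (29.6, 39.2 and 33.8 CPM against 24.8, 24.8 and 29.6 CPM, 0.37, unadjusted p = 0.0135). The 24 endothelial markers had a median of -0.03 (11 higher, 13 lower), the 19 mural Notch and pericyte genes -0.04, the 20 collagens 0.08 and the 24 Hox genes 0.02. The sign of the endothelial, collagen and Hox medians turned when single Cre libraries were left out, with ranges of -0.15 to 0.05, -0.17 to 0.17 and -0.07 to 0.17. None of the endothelial or mural genes reached an unadjusted p under 0.05. Among 19 elastic fibre genes, with a median of -0.18 that ran from -0.53 without Myh11-Cre 1 to -0.02 without Myh11-Cre 2, Efemp1, the matrix protein fibulin 3, was lower in all 3 Itga8-Cre mice (18.1, 19.2 and 14.4 CPM against 21.9, 41.3 and 26.4 CPM, -0.79, unadjusted p = 0.0123).

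Among 26 tested integrin subunits, 15 were higher and 11 lower, with a median of 0.10, and Itga8 had the largest change. The 3 subunits with an unadjusted p under 0.05 on the higher side were Itgb8, which activates TGF-beta together with integrin alpha v, and Itga4 and Itgb7, which serve the homing of lymphocytes. Itgb8 was at 16.2, 20.8 and 17.2 CPM in Itga8-Cre and 12.9, 14.1 and 12.1 CPM in Myh11-Cre (0.47, SE 0.12, unadjusted p = 0.0037). Wild Type, at 18.7, 21 and 20 CPM, lay with Itga8-Cre. Itga4 was at 67.3, 113 and 98.2 CPM against 63.4, 66.6 and 54.5 CPM (0.59) and Itgb7 at 31.3, 54.5 and 34.8 CPM against 25.1, 15.3 and 28.1 CPM (0.82). Together with Itga6 (0.15), these 3 were the subunits whose levels lay higher in all 3 Itga8-Cre mice. For comparison, 7.64% of all genes reached an unadjusted p under 0.05 on the higher side, and 9.65% lay higher without overlap. With 26 subunits, these counts are too small to set integrins apart from other genes.

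The partner and the ligands of integrin alpha 8 showed both directions. Itgb1, the beta chain, was at 312, 309 and 294 CPM in Itga8-Cre and 299, 398 and 382 CPM in Myh11-Cre (-0.24, SE 0.17), overlapping. Npnt, nephronectin, was at 27.8, 37.9 and 30.4 CPM against 16.3, 68.7 and 65.9 CPM (-0.65, SE 0.57), in the same order of mice as the contractile genes. Fras1, a basement membrane protein that forms a complex with Frem1 and Frem2, was lower in all 3 Itga8-Cre mice (14.2, 16.5 and 13.7 CPM against 19.7, 22.6 and 20 CPM, -0.49, SE 0.14, unadjusted p = 0.0086). Wild Type, at 11.7, 15.3 and 11.1 CPM, lay with Itga8-Cre. Tgfb1, whose latent form binds integrins of this family, was higher in all 3 Itga8-Cre mice (25.3, 34 and 28.6 CPM against 18.6, 22.8 and 23.3 CPM, 0.44, unadjusted p = 0.00942). Of the 12 genes on this list, 5 were higher and 7 lower, with a median of -0.16.

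Nerve cell genes were the list with the highest median. All 22 had a positive log2 fold change, with a median of 1.08 (range 0.84 to 1.53) against 0.01 for all genes. Of these, 13 reached an unadjusted p under 0.05 and 12 were higher in all 3 Itga8-Cre mice, though neither edgeR nor DESeq2 called any. Nefm, a neurofilament of axons, was at 4.6, 10.9 and 5.22 CPM in Itga8-Cre and 3.69, 2.31 and 1.15 CPM in Myh11-Cre (1.53, SE 0.55). Th, the enzyme that starts catecholamine synthesis in sympathetic nerves, was at 45.5, 74.8 and 40.6 CPM against 36.9, 21.4 and 9.09 CPM (1.26, SE 0.52). Itga8-Cre 2 was highest and Myh11-Cre 3 lowest in both, and Wild Type was higher still in 2 of its 3 mice (5.56, 15.2 and 16.4 CPM for Nefm and 45.8, 92.4 and 126 CPM for Th). The summed level of the list was 607 to 1063 CPM in Itga8-Cre, 155 to 599 CPM in Myh11-Cre and 696 to 1646 CPM in Wild Type. No gene of the list kept an unadjusted p under 0.05 without Itga8-Cre 2, without Myh11-Cre 2 or without Myh11-Cre 3, with medians of 0.82, 1.01 and 0.76, whereas all 22 did without Myh11-Cre 1 (median 1.64). The 18 Schwann cell and glial genes had a median of 0.06, with 10 higher and 8 lower, and 2 of these markers of the cells that wrap axons had an unadjusted p under 0.05. How much of a ganglion or nerve each dissection kept was not tested.

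Genes of B lymphocytes were higher in Itga8-Cre in part. Of 20, 16 were higher and 4 lower, with a median of 0.68. Of the 20, 8 had an unadjusted p under 0.05, but only 1 had groups that did not overlap. Fcer2a, the low-affinity IgE receptor, was at 20, 49.5 and 37.6 CPM in Itga8-Cre and 14.4, 9.85 and 21.1 CPM in Myh11-Cre (1.24, SE 0.36), overlapping through Itga8-Cre 1. Ighm, the heavy chain of IgM, was the exception in size, with 1159 CPM in Myh11-Cre 1 against 183 to 330 CPM in the other 5 Cre mice, so that the summed level of the list ran from 753 to 1619 CPM in Itga8-Cre and from 491 to 2237 CPM in Myh11-Cre. Without Itga8-Cre 2 the median was 0.31 with 1 gene at an unadjusted p under 0.05, and without Myh11-Cre 2 it was 0.37.

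Genes that present antigen leaned the same way. Of 16, 15 were higher and 1 lower, with a median of 0.41; 5 had an unadjusted p under 0.05 and 5 did not overlap. H2-DMb1, which loads peptides on class II molecules, was at 13.3, 20 and 15.4 CPM in Itga8-Cre and 9.55, 10.4 and 11.1 CPM in Myh11-Cre (0.65, SE 0.15, unadjusted p = 0.00216). Nlrc5 and Ciita, the activators of class I and class II genes, had log2 fold changes of 0.61 and 0.95, and Tap1, which carries peptides into the endoplasmic reticulum, 0.47. The median stayed between 0.23 and 0.55 when single Cre libraries were left out. Beside this list, B cell markers were higher on average in the same mice, and their part in these values was not tested.

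Other immune lists were less even. Of 17 genes of Toll-like receptors and their signalling, 12 were higher and 5 lower (median 0.18, or 0.34 without Itga8-Cre 1). Tlr1, which pairs with Tlr2 (0.94), Unc93b1, which carries Toll-like receptors to endosomes (0.45), and the transcription factor Irf5 (0.53) were higher in all 3 Itga8-Cre mice, while Tlr7 (-0.62) was lower. Of 28 macrophage and myeloid genes, 21 were higher and 7 lower, with a median of 0.20 that ran from 0.00 without Myh11-Cre 1 to 0.64 without Myh11-Cre 2, where 14 genes had an unadjusted p under 0.05. Laptm5, a lysosomal protein of blood cells, was at 104, 156 and 146 CPM against 95.3, 89.2 and 90.2 CPM (0.57, unadjusted p = 0.00899), and Folr2, a folate receptor of resident macrophages, was lower on average (-0.70, overlapping). Of 30 interferon response genes, 21 were higher and 9 lower with a median of 0.14, which was 0.01 without Itga8-Cre 2. Mx1 (1.2), Oas3 (0.91) and Zbp1 (0.60), which sense or block viruses, were higher in all 3 Itga8-Cre mice. These 3 of 30 are close to the 9.65% of all genes that lay higher without overlap.

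Thymocyte genes differed more within a line than between the lines. Rag1, part of the recombinase that assembles antigen receptor genes, was at 0.63, 0.443 and 477 CPM in Itga8-Cre 1, 2 and 3 and at 274, 233 and 44.6 CPM in Myh11-Cre 1, 2 and 3. The 25 thymocyte and T cell genes had a median of 0.23, which turned to -0.66 without Itga8-Cre 3 and to -0.11 without Myh11-Cre 3. The 28 cell cycle genes behaved alike, with a median of 0.13 (27 higher, 1 lower), -0.64 without Itga8-Cre 3 and -0.20 without Myh11-Cre 3, and none had an unadjusted p under 0.05.

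Skeletal muscle, mesothelial, fibroblast, fat and red cell genes were lower on average in Itga8-Cre, with mice that overlapped. All 25 fast skeletal muscle genes had a negative log2 fold change, with a median of -1.46 that ran from -2.94 without Itga8-Cre 3 to -0.66 without Myh11-Cre 3. Acta1, the skeletal actin, was at 22.1, 384 and 1501 CPM in Itga8-Cre and 4.57, 2383 and 3636 CPM in Myh11-Cre. The range within each line was wider than the difference between the lines, and no gene of the list had an unadjusted p under 0.05. The 20 slow and cardiac sarcomere genes were also all lower, with a median of -0.71, which was -0.35 without Itga8-Cre 1 and -1.45 without Itga8-Cre 2, where 9 genes had an unadjusted p under 0.05. Of 17 mesothelial and epithelial markers, 16 were lower, with a median of -0.77. That median was -0.39 without Myh11-Cre 2 and -1.36 without Itga8-Cre 3, with 9 genes at an unadjusted p under 0.05 in the latter fit. Msln, mesothelin of the lining of body cavities, was at 13.1, 12.5 and 21.5 CPM against 19.6, 42.9 and 35.1 CPM (-1.05, SE 0.36, unadjusted p = 0.0178). The summed level of these markers was 154 to 256 CPM in Itga8-Cre and 199 to 453 CPM in Myh11-Cre, against 74.7 to 134 CPM in Wild Type.

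The stroma and fat around the vessel showed smaller medians. Of 19 fibroblast markers 18 were lower, with a median of -0.38, and Gsn, gelsolin, which cuts actin filaments, was the 1 gene with an unadjusted p under 0.05 (-0.64). Without Myh11-Cre 1 the fibroblast median was -0.58, with 11 genes at an unadjusted p under 0.05, and without Myh11-Cre 2 it was -0.22. Of 24 white fat and lipid synthesis genes 23 were lower (median -0.32), and the median was 0.05 without Myh11-Cre 1, -0.04 without Itga8-Cre 2 and -0.72 without Itga8-Cre 1. All 19 brown fat genes were lower by little (median -0.16, range -0.35 to -0.07), but the direction rested on single mice: 14 of the 19 were higher without Itga8-Cre 2 (median 0.07) and 12 without Myh11-Cre 1 (median 0.08). Of 9 red cell genes 8 were lower (median -0.80), and this median was -0.46 without Itga8-Cre 2 and -0.07 without Myh11-Cre 2. With all libraries, no gene of the fat or red cell lists had an unadjusted p under 0.05.

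**Figure D4:**
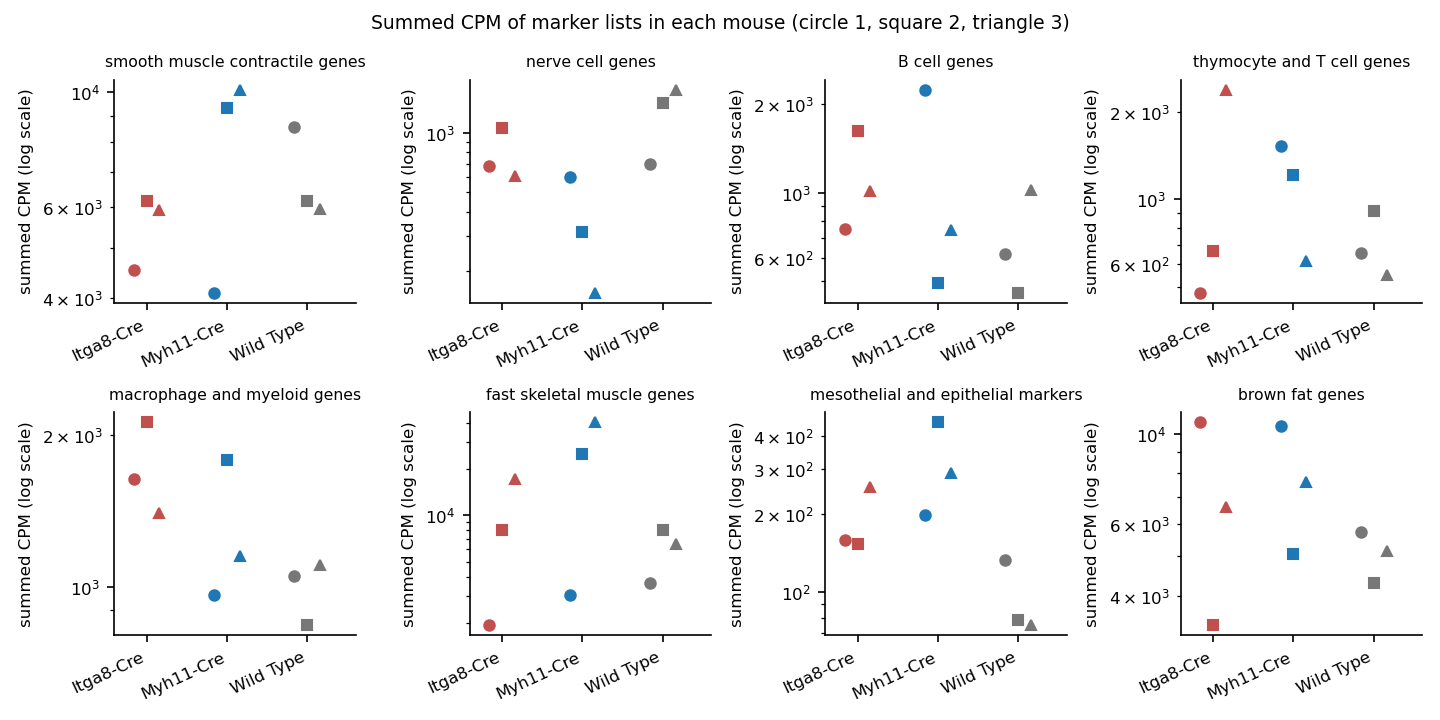
Summed CPM (vertical axes, log scale) of 8 lists of marker genes in the 3 mice of each genotype. Mice of 1 genotype differ widely: fast skeletal muscle genes run from 1928 to 17250 CPM within Itga8-Cre and from 3036 to 40250 CPM within Myh11-Cre, and in the nerve cell panel all 3 Itga8-Cre mice lie above all 3 Myh11-Cre mice.

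Lists of metabolism leaned lower in Itga8-Cre. All 29 nuclear genes of oxidative phosphorylation had a negative log2 fold change, with a median of -0.24 (range -0.33 to -0.12), and 2 had an unadjusted p under 0.05. Atp5j, a subunit of the ATP synthase, was at 97.1, 84.4 and 89.2 CPM in Itga8-Cre and 104, 106 and 123 CPM in Myh11-Cre (-0.30, SE 0.10, unadjusted p = 0.0209). The median of this list was -0.49 without Itga8-Cre 1, with 24 genes at an unadjusted p under 0.05, and -0.05 without Itga8-Cre 2, with none. Of 19 genes of haem and cytochrome c, which hold Hccs, 16 were lower and 3 higher (median -0.16, from -0.37 without Itga8-Cre 1 to -0.04 without Itga8-Cre 2). Fech, ferrochelatase, the last enzyme of haem synthesis, was lower in all 3 Itga8-Cre mice (100, 67.8 and 79.6 CPM against 105, 102 and 104 CPM, -0.33), and Ppox, the enzyme before it, was higher (22.2, 20.9 and 19 CPM against 17.8, 15.9 and 18.2 CPM, 0.26).

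Of 23 insulin and growth factor feedback genes, 18 were lower and 5 higher (median -0.16). Pik3r1 was the 1 gene of the list called by DESeq2. Irs1, the docking protein between the insulin receptor and PI3 kinase, was at 70.7, 71 and 57.4 CPM in Itga8-Cre and 84.9, 75.5 and 79.8 CPM in Myh11-Cre, separate by a small margin (-0.27, unadjusted p = 0.0836). Spred3, an inhibitor of the Ras pathway, was higher in all 3 Itga8-Cre mice (3.43, 5.37 and 2.36 CPM against 1.48, 2.26 and 2.11 CPM, 0.93, unadjusted p = 0.0182). In all, 1 gene of the list was higher and 3 were lower without overlap.

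Genes that respond to hormones, daytime and stress showed small negative medians. Of 16 glucocorticoid response genes 12 were lower (median -0.31), among them Errfi1, a feedback inhibitor of the EGF receptor, at 20.4, 17 and 29.9 CPM in Itga8-Cre and 23.5, 58.8 and 57 CPM in Myh11-Cre (-1.05, unadjusted p = 0.0128). Tsc22d3, a mediator of glucocorticoid action, was at 167, 77.7 and 174 CPM against 204, 206 and 232 CPM (-0.62, unadjusted p = 0.0528), and its groups did not overlap. Without Itga8-Cre 2, 8 of the 16 were higher and 8 lower (median -0.04), and none had an unadjusted p under 0.05. Of 19 circadian clock genes 17 were lower, with a median of -0.31 that was -0.18 without Itga8-Cre 2. Bhlhe40, a repressor in the clock, was at 92.3, 52.7 and 73.2 CPM against 138, 93.3 and 115 CPM (-0.67, unadjusted p = 0.0909), apart by a small margin. Of 26 heat shock and endoplasmic reticulum stress genes 23 were lower (median -0.14), and Herpud1, which helps to clear misfolded proteins, was at 154, 112 and 121 CPM against 166, 156 and 177 CPM (-0.37, unadjusted p = 0.0305). The labels do not state the time of day of dissection.

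Immediate early genes, which respond to a stimulus within minutes, went both ways: 12 of 26 were higher and 14 lower, with a median of -0.17. Egr3, a transcription factor of this class that also acts in lymphocytes, was at 5.49, 11 and 12.4 CPM in Itga8-Cre and 3.17, 2.82 and 5.03 CPM in Myh11-Cre (1.39, SE 0.34, unadjusted p = 0.00297), without overlap. Dusp1, a phosphatase of MAP kinases, was lower on average (24.6, 23.4 and 34.9 CPM against 33.9, 38.5 and 52.5 CPM, -0.59) and overlapped through Itga8-Cre 3. Of 19 hypoxia response genes 15 were lower (median -0.21, or -0.04 without Itga8-Cre 2), and Adm, the vasodilator peptide adrenomedullin, was at 3.52, 3.48 and 3.48 CPM against 3.69, 11.8 and 6.28 CPM (-1.05, unadjusted p = 0.0173). Of 25 TGF-beta and BMP genes 17 were lower (median -0.10), and of 22 p53 targets 14 (median -0.08). The 18 genes of modulated smooth muscle had a median of -0.24. Leaving out single Cre libraries gave -0.24 to -0.03 for the immediate early genes, -0.15 to -0.02 for the TGF-beta and BMP genes, -0.13 to 0.04 for the p53 targets and -0.37 to -0.06 for modulated smooth muscle.

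**Figure D5:**
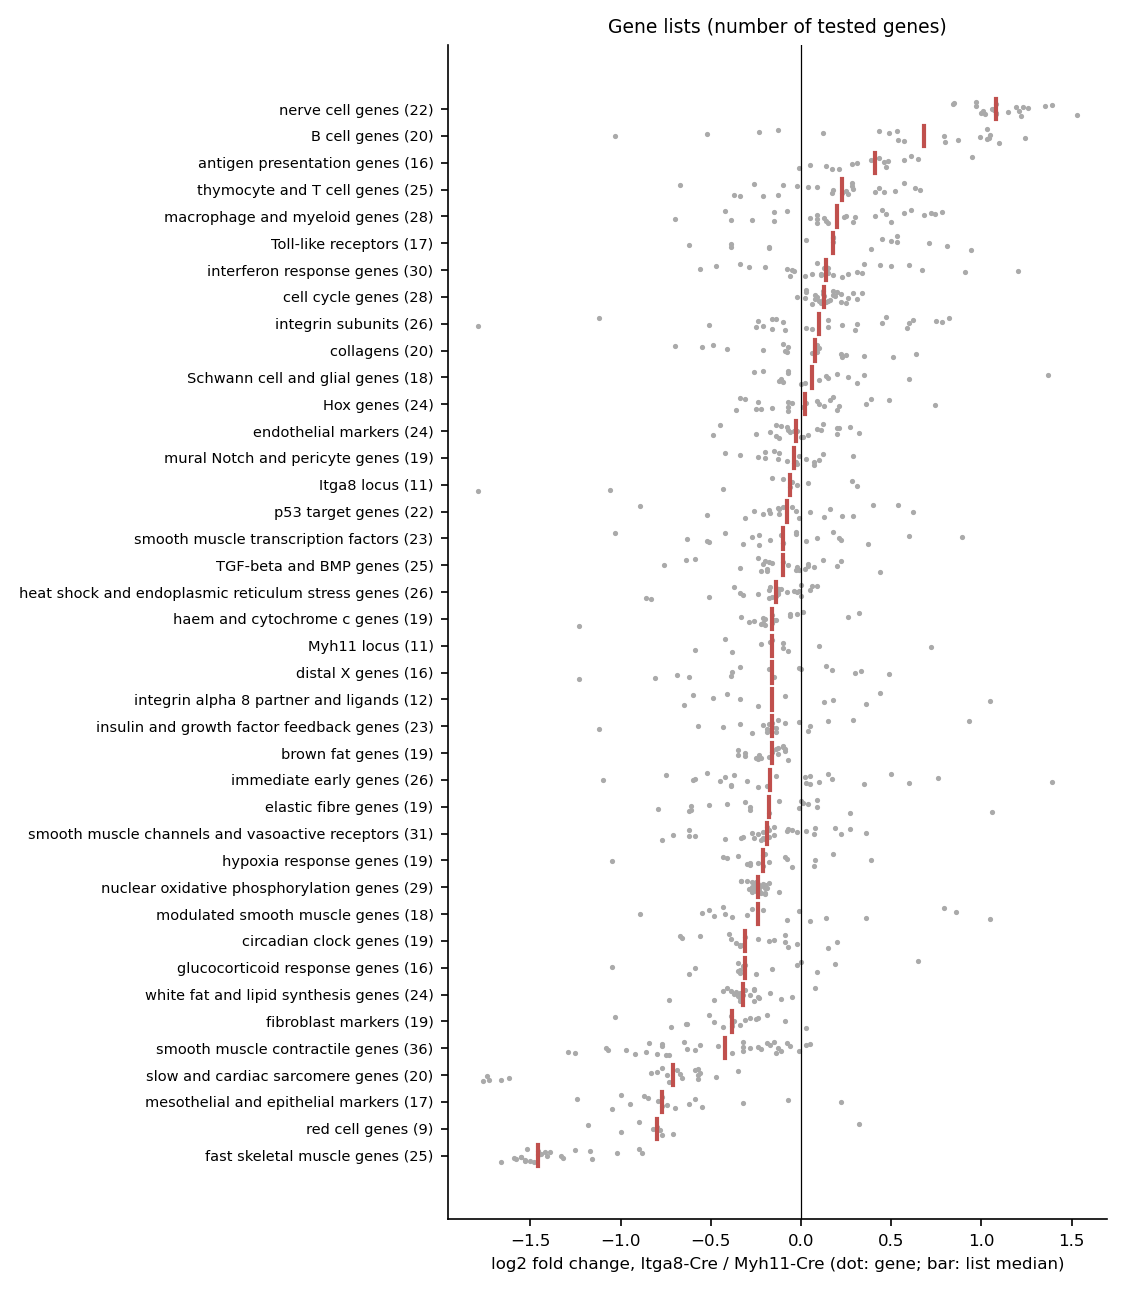
Log2 fold change of Itga8-Cre over Myh11-Cre (horizontal axis) of each tested gene of a list (grey dots) with the median of the list (red bars), for lists with at least 9 tested genes, whose number stands in brackets. Nerve cell genes lie highest, at a median of 1.08, and fast skeletal muscle genes lowest, at -1.46, while the bars of most lists lie near 0.

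The 4 tested genes on the list of Y-linked genes had small differences, with log2 fold changes of -0.18 for Eif2s3y, -0.15 for Ddx3y, -0.06 for Uty and 0.14 for Kdm5d, and none had an unadjusted p under 0.05. All 4 had counts in every library of the series. Their summed level was 259.5 to 274.9 CPM in Itga8-Cre, 279.1 to 306.1 CPM in Myh11-Cre and 252.9 to 283.1 CPM in Wild Type. Eif2s3y, a translation initiation factor, was at 57, 57.9 and 59.8 CPM in Itga8-Cre and 71.9, 61.4 and 64.1 CPM in Myh11-Cre, and Ddx3y, an RNA helicase, at 134, 114 and 129 CPM against 146, 135 and 139 CPM, both lower without overlap.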

How the data were processed

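RNA of whole aortae was made into libraries with the TruSeq Stranded mRNA kit and read as single-end reads on a NovaSeq, per the labels' protocols. The authors deposited counts per gene, whole numbers that were used as they stand for every test; no library was pooled. Per the submitters' processing notes, reads were handled on the build GRCm38.p6, and the programs named, in no order, are STAR 2.7.0f, fastp 0.20.0, Salmon 0.13.1, featureCounts, Subread 1.6.4 and DESeq2. Neither the annotation release nor the use of strand is given in the sources used here. A second deposited table of scaled counts was not used. Positions come from GENCODE M21, in which 19245 of 19412 tested symbols had a single gene, and promoter windows from RefSeq (GRCm38.p6), where both genes looked up were found.

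In R 4.3.3, edgeR 4.0.16 kept genes by filterByExpr, scaled by TMM and fitted 1 mean per group to the 9 libraries by robust quasi-likelihood (common biological coefficient of variation of 0.294 and a median of 2.67 prior degrees of freedom), so Wild Type mice shared in the estimate of the spread. P-values were adjusted by Benjamini-Hochberg over all genes tested, with a threshold of 0.05. Further tools, DESeq2 1.42.0 and voom of limma 3.58.1, served as alternatives. Fold sizes of single genes are ratios of mean CPM, and log2 fold changes are edgeR's. Fold sizes of count ratios come from the difference of mean log2 ratios. The fold of Mid1-ps1 sets its summed Myh11-Cre counts, scaled by total counts, against the floor. Ratios of counts were compared by exact two-sided permutation over 3 against 3 mice. The scripts were tested on simulated data. Total counts per library, which limit the precision, are given with the results.

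Gene lists and the genes on them were chosen with earlier results of these data known, and lists are described by counts and medians without a test. Named genes were Itga8, Myh11 and tested genes of the Itga8, Myh11, distal X and Y-linked lists; the 20 genes of smallest p with a mean CPM of at least 1 that are neither gene models nor antigen receptor segments; genes called by DESeq2; and up to 4 genes of smallest p and the most abundant markers of each list. Other members of a list that are named, Mid1-ps1, 2310015D24Rik, Ankrd16, Hacd1 and the genes named for the first principal component were chosen after their values were seen. Alternatives were other scalings, filters and tools, the 6 Cre libraries alone, the mouse number as a block, a skeletal muscle covariate, a test against a change of 1.2-fold and fits without single libraries. Single genes of some lists are not reported here.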

Additional observations from a re-analysis of the deposited data

How the results depend on the processing

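The edgeR test called 0 genes at every setting run, with 1840 genes at an unadjusted p under 0.05 in the fit reported; DESeq2 called 19, and 2 (Hccs and Mid1-ps1) when fitted to the 6 Cre libraries alone, an alternative chosen after seeing the data. With single Cre libraries left out, also chosen after seeing the data, DESeq2 called 2 to 756 genes. Of the 1840 genes, 80.7% were higher in Itga8-Cre. This share was 71.3% with DESeq2's size factors in edgeR and 84.9% with upper quartile factors, and 55.7% without both mice numbered 1. The genes at an unadjusted p under 0.05 numbered 1484 higher and 356 lower as reported. They numbered 832 higher and 132 lower against a minimum change of 1.2-fold, 972 and 227 with only the 6 Cre libraries, and 2288 and 1817 without Itga8-Cre 1 and Myh11-Cre 1. With DESeq2, 631 were lower, and with the skeletal muscle score as covariate 584 were lower. Leaving out 1 library each gave 398 to 2117 higher genes, lowest without Itga8-Cre 2, and 152 to 1403 lower genes, lowest without Myh11-Cre 3. The cause of these shifts was not tested.

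Mouse numbers were not taken as pairs, since the labels name no shared litter or day. The deviations of same-numbered mice all correlated positively, by 0.396, 0.0741 and 0.205. Other pairs gave -0.355, -0.238, -0.0467, -0.00388, -0.297 and 0.24, so only Itga8-Cre 3 with Myh11-Cre 2 was positive among them. Itga8-Cre 1 and 2 correlated best with their own number, and Itga8-Cre 3 with Myh11-Cre 2. With the number as a replicate block, edgeR called 0 genes (smallest adjusted p 0.0672, for Hccs), and 1245 genes were higher and 711 lower at an unadjusted p under 0.05, 63.7% of them higher.

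For the 29 genes named by p-value or DESeq2 call, 587 of 608 repeats kept direction and side of the threshold, 21 passed it, all with DESeq2, and 0 reversed. The genes were picked from these same data, so a kept direction was likely beforehand. None was called by edgeR, so a kept side means that the gene stayed uncalled. DESeq2 fits without single libraries, in which many calls were lost, are not among the 608. The exact permutation tests cannot go below 0.1, and genes near 1 CPM rest on few counts.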

Other observations

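Gene classes of the annotation differed in how often they lay higher in Itga8-Cre. Of 15327 protein-coding genes, 6.75% were higher and 2.11% lower at an unadjusted edgeR p under 0.05, with a median log2 fold change of -0.02. Of 1246 genes of the TEC class, unspliced transcript models, 15.7% (196) were higher and 0.0803% (1) lower, with a median of 0.41. Of 193 sense-intronic genes, transcripts that lie within introns of other genes, 18.7% (36) were higher and 0 lower, with a median of 0.44. TEC genes took 0.158%, 0.279% and 0.206% of counts in Itga8-Cre 1, 2 and 3 against 0.142%, 0.168% and 0.148% in Myh11-Cre, so the 2 Cre lines overlapped, and 0.203%, 0.258% and 0.204% in Wild Type. Without Itga8-Cre 2, the TEC median was 0.21 and 47 of these genes were higher at an unadjusted p under 0.05; the sense-intronic median was 0.26 with 11 genes higher, and 250 protein-coding genes were higher and 273 lower against 1034 and 323 with all libraries. Without any other single Cre library the TEC median was 0.40 to 0.50 and the sense-intronic median 0.41 to 0.45.

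Mid1-ps1, a pseudogene of Mid1 on the Y chromosome (90753057 to 90763485, plus strand, GRCm38), had 0 counts in each Itga8-Cre mouse. It had 16, 25 and 21 counts in Myh11-Cre 1, 2 and 3, with 0, 2 and 2 counts in Wild Type. Against a floor of 3 counts over the Itga8-Cre group it was at least 17.3-fold lower in Itga8-Cre (edgeR unadjusted p = 0.00019, adjusted p = 0.521). It shares sequence with Mid1 on the X chromosome, so the place its reads come from is uncertain. DESeq2 gave no adjusted p for it with all 9 libraries.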
